A study of Mus musculus with 2 samples.

Results

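The protein genes of the cytosolic ribosome, and the paralogues that can stand in for single subunits, were measured in gastrocnemius, the large calf muscle of the mouse. The members were all genes with a symbol of the Rpl, Rps or Rplp series, or Rpsa, that had at least 1 protein-coding transcript and were neither named pseudogenes nor ribosomal S6 kinases. The rule found 86 of 55536 genes. Of these, 77 were core subunits (46 of the large and 31 of the small subunit), 8 were paralogues (Rpl3l, Rpl10l, Rpl22l1, Rpl36al, Rpl39l, Rpl7l1, Rps27l and Rps27rt) and 1, Rps19bp1, encodes a binding partner of a ribosomal protein and not a subunit. A further 7 matching symbols, Rps4l among them, had no protein-coding transcript and were left out, so the pair of Rps4x and Rps4l could not be formed. Subunits such as Fau and Rack1 lie outside the symbol rule and are given separately.

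Total RNA was sequenced from 2 female B6CASTF1/J mice, the first-generation cross of a B6 and a CAST parent, aged 2 months and without a stated treatment. The libraries were made from 300 ng of RNA each, with ERCC spike-ins, form 1 group, and held 45014831 and 47771308 expected counts in genes. Reads were counted on mm10, a B6 assembly, and the alleles of the cross were not separated. The labels number the mice separately and call them biological replicates, but give both the same donor record. They are called animal 1 and animal 2 here, and every SD measures only the spread between these 2 samples, which may be technical. No treated or mutant group was analysed, so the values describe levels in this muscle and the distance between the libraries. Values are TPM, a transcript measure scaled to transcript length and library, so that levels can be compared between genes. Each library came as a gene table and a first transcript table from 1 quantification, and as a second transcript table from another. The gene table is used unless the second table is named.

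A ribosome carries 1 copy of nearly every core protein, so cells need these proteins in matched amounts. Most of their messenger RNAs begin with a C and a run of pyrimidines, the 5′ terminal oligopyrimidine (TOP) motif, through which mTOR signalling controls their translation. A few core proteins have a paralogue made mainly in 1 tissue. Rpl3l replaces Rpl3, a core protein near the peptidyl transferase centre, in ribosomes of skeletal and heart muscle, while Rpl10l and Rpl39l belong to the testis.

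The coding sequences of Rpl3 and Rpl3l are shown because the main result rests on telling these genes apart. Both are given over the first 60 coding bases (GENCODE M21), with the bases that differ in capitals.

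Rpl3: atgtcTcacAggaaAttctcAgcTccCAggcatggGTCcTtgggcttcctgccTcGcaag
Rpl3l: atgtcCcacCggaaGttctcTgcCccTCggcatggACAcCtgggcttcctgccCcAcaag

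They differed at 13 of these 60 bases and were 74.1% identical over 1209 aligned coding bases, with 403 and 407 codons. The longest identical stretch was 22 nt, and Rpl3l shared no window of 100 nt with any other annotated transcript. The starts of Rpl39 and Rpl39l are shown as a closer pair, with 4 differing bases in capitals and 85.3% identity over the coding sequence.

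Rpl39: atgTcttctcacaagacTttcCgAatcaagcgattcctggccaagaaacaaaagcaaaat
Rpl39l: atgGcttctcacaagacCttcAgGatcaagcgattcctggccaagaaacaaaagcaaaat

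Identity was 70.2% for Rpl22 and Rpl22l1, 84.8% for Rpl10 and Rpl10l, 87.9% for Rpl36a and Rpl36al, 74.9% for Rps27 and Rps27l, and 56.0% for Rpl7 and Rpl7l1. The coding sequences of Rps27 and Rps27rt were 100% identical, so reads within them cannot separate those genes.

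The TOP motif was looked for at the annotated starts in RefSeq (GRCm38.p6), where 66 of the 86 members had an entry. It was searched as a C at the first base followed by 4 bases that are each C or T, on the transcribed strand only. At least 1 start matched in 14 of 66 members (21.2%) and in 13 of 57 core genes (22.8%), against 3.01% of 27025 genes. When the motif was allowed to begin within 10 bases on either side of the start, 60.6% of members and 34.4% of all genes held it. A match is a description of the letters and not a measured start. The promoters of a small and a large subunit gene with a long pyrimidine run from the start, Rps27 and Rpl38, are set beside that of Rpl3l, from 40 bases before the start to 20 bases after it. Capitals mark the run in Rps27 and Rpl38, and in Rpl3l the letters CAGCTG, an E-box of the kind bound by muscle regulatory factors.

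Rps27 (chr3:90213629-90213688, minus strand): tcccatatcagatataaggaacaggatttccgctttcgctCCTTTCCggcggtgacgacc
Rpl38 (chr11:114668540-114668599, plus strand): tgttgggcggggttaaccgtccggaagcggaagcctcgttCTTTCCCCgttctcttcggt
Rpl3l (chr17:24727786-24727845, plus strand): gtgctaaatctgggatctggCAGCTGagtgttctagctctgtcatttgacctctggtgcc

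The runs were 7 and 8 bases long. The Rpl3l window had no C or T run at its start, and its CAGCTG began 20 bases before the start, but it met the wider search for the motif within 10 bases. RefSeq gives Rpl3l a second, downstream start, whose window held neither CAGCTG nor a match to either search. CAGCTG, which reads the same on both strands, lay within the windows (250 bases before to 50 after each start) of 4 of 66 members (6.06%), of 2 of 57 core genes and of 18.3% of all genes. Rpl3 and Rplp1 had no promoter entry.

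The ribosomal protein transcripts were abundant, and most core genes lay within a 4-fold band. The members held 1.503 ± 0.0198% of the TPM of all genes (SD, n = 2), with 1.52% in animal 1 and 1.49% in animal 2. Of nuclear protein-coding genes alone the share was 3.96 ± 0.0114%, and of expected counts, which are not scaled to length, it was 0.694 ± 0.00554%. Of the 86 members, 84 stood at 1 TPM or more in both animals, and the other two were the testis paralogues Rpl10l and Rpl39l. In bulk tissue, fewer cells of a type and less RNA per cell cannot be told apart, which holds for every level given here. The tissue label was checked with 8 markers of fast fibres, all at 1 TPM or more, with a summed level of 43807 and 41561 TPM.

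The core subunits had a median of 178 TPM and a range of 14.87 to 548 TPM, and 60 of the 77 lay between 100 and 400 TPM. Large and small subunit genes had similar medians, 178.7 TPM over 46 genes and 174.3 TPM over 31. The spread among genes was wider in the large subunit, with an SD of 1.16 on the log2 scale against 0.62 in the small subunit, and all 6 core genes under 50 TPM belong to it. Most of this gap went once pseudogene copies were counted with each gene, as described further on. The SD was then 0.616 against 0.516, and 0.618 against 0.580 in the second table. Rplp1, an acidic protein of the stalk that recruits elongation factors, was the highest member, at 555 and 541 TPM in animals 1 and 2. Rps27, a zinc-binding protein of the small subunit, followed with 468 and 451 TPM. Rpl41, which encodes the shortest ribosomal protein, stood at 430 and 368 TPM. High levels were also found for Rps29, Rpl23a, Rps14, Rpl3l and Rps24, with means from 372 down to 307 TPM. Among these 8 the animals differed most in the TPM of Rpl41. In the scaled read counts used further on, Rps29 and Rpl3l were further apart, at log2 ratios of 0.22 and 0.21 against -0.11 for Rpl41. The order of neighbours such as Rps14, Rpl3l and Rps24 was not resolved beyond the spread between animals.

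At the low end of the core stood Rpl27 (14.87 ± 4.00 TPM), Rpl5 (15.1 ± 0.233 TPM), Rpl3 (26.7 ± 11.7 TPM), Rpl12 (32.2 ± 0.290 TPM) and Rpl27a (39.8 ± 1.23 TPM). Rpl5 binds 5S ribosomal RNA together with Rpl11, and Rpl12 sits at the base of the stalk. All 5 share sequence with pseudogene copies, which are counted with them further on. Rps19bp1 stood at 6.16 and 5.75 TPM, under every core subunit.

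**Figure D1:**
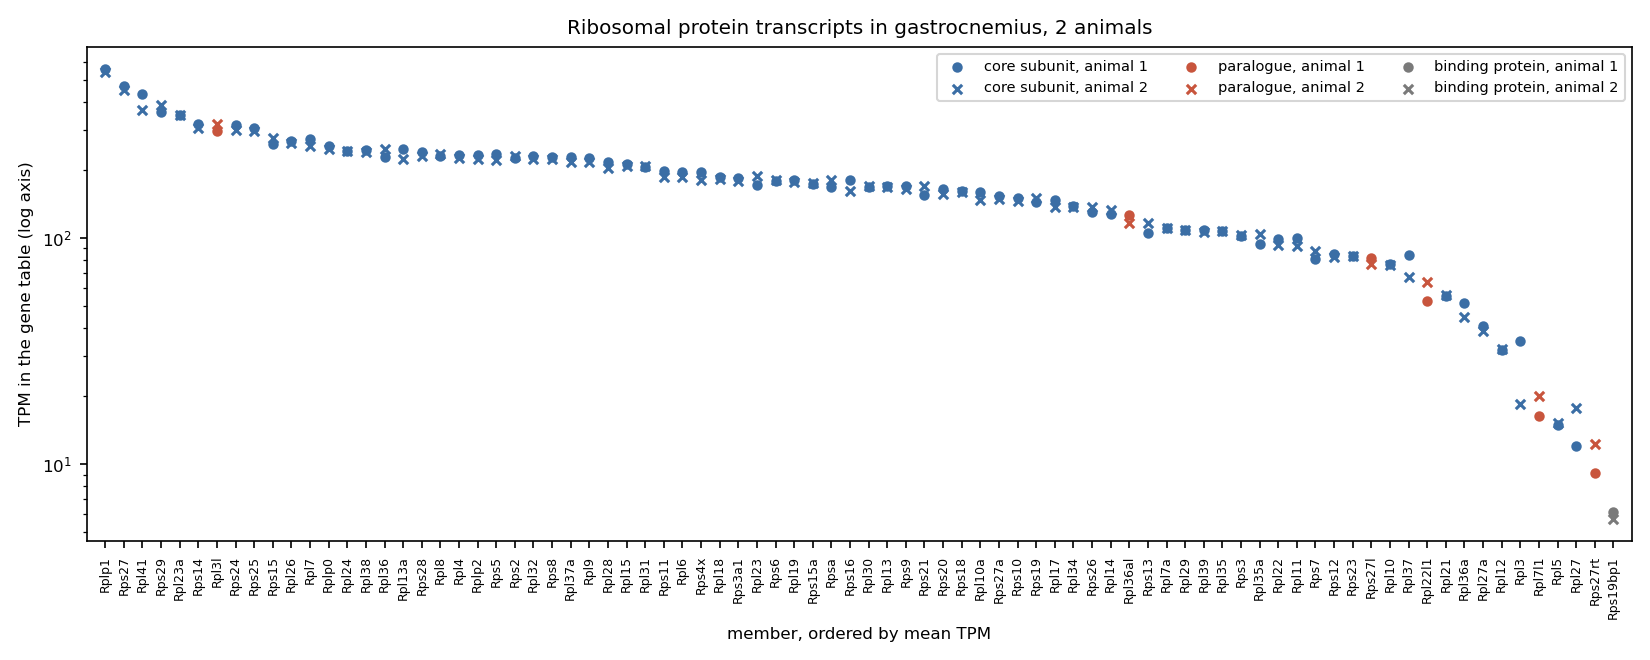
TPM (log axis) of members at 1 TPM or more that are reported here, ordered by mean, with a circle for animal 1 and a cross for animal 2, and colours for core subunits, paralogues and the binding protein. The paralogue Rpl3l is near the top at 308 TPM, while Rpl3 lies near the bottom at 35.0 and 18.4 TPM.

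Rpl3l was the paralogue that exceeded its core gene by the most. Rpl3l stood at 297 and 319 TPM in animals 1 and 2, and Rpl3 at 35.0 and 18.4 TPM. The values of the genes did not overlap, and Rpl3 was higher in animal 1 while Rpl3l was higher in animal 2. The log2 ratio of Rpl3l over Rpl3 was 3.59 ± 0.72 (SD, n = 2, pseudocount 0.1 TPM), which is a fold of 12.1 and larger than the spread, defined as a mean above 2 SD with 1 sign in both animals. Rpl3l held 89.5% of the TPM of the pair in animal 1 and 94.5% in animal 2. In the second table it was 86.1% and 92.8%, at a log2 ratio of 3.16 ± 0.75.

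The level of Rpl3l rests on 14129 and 16121 reads with a posterior SD of 0, and none of its windows was shared. Rpl3 had 1292 and 741 reads, with a posterior SD of 50.1 and 43.8 reads, and shared 59.9% of its windows with other genes. Of its 7 pseudogene copies Rpl3-ps1 was the highest, at 21.2 and 14.9 TPM in animals 1 and 2. With all copies added to Rpl3, the ratio was 2.83 ± 0.60, again larger than the spread. Both genes were placed mainly on coding transcripts: Rpl3l-202 carried 291 and 312 TPM of Rpl3l, and Rpl3-201 carried 22.3 and 11.7 TPM of Rpl3. Together Rpl3 and Rpl3l summed to 332 and 337 TPM in animals 1 and 2, a mean of 335 ± 3.73 TPM. Rpl3 lies on chromosome 15, 80077791 to 80091868, minus strand, and Rpl3l on chromosome 17, 24727820 to 24736143, plus strand (mm10).

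Rpl36al was the other paralogue above its core gene in the gene table. Rpl36al stood at 126 and 117 TPM, and Rpl36a, a large subunit protein at the transfer RNA exit site, at 51.8 and 44.6 TPM. The log2 ratio was 1.33 ± 0.075, but it turned to -0.23 ± 0.034 once the pseudogene copies of Rpl36a were counted with it. These copies carried 93.4 and 97.1 TPM, and 83.6% of the windows of Rpl36a were shared. In the second table the ratio was 0.39 ± 0.038, with no TPM on the copies.

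Rpl22l1 came close to Rpl22, an RNA-binding protein of the large subunit. Rpl22l1 stood at 52.4 and 63.7 TPM in animals 1 and 2, and Rpl22 at 98.7 and 93.5 TPM, so the values did not overlap. The log2 ratio of -0.73 ± 0.25 was larger than the spread, while that of the second table, -0.37 ± 0.30, was not. Most of the TPM of Rpl22l1 was on a transcript typed as processed, Rpl22l1-209, at 41.8 and 55.5 TPM, while its coding transcripts Rpl22l1-206 and Rpl22l1-201 had 6.49 and 5.05 TPM and 2.74 and 2.00 TPM. The second table placed 0.000609 and 20.4 TPM on Rpl22l1-209 and 25.8 and 20.96 TPM on Rpl22l1-206. Another transcript typed as processed, Rpl22l1-202, led there with 57.9 and 77.0 TPM, and the retained intron Rpl22l1-205 had 31.8 and 27.5 TPM. The division among the transcripts of Rpl22l1 was thus not settled. The share on transcripts not typed as protein-coding was high in both transcript tables, with means of 85.7% and 81.6%.

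The remaining paralogues were far below their core genes. Rps27l, a paralogue known as a p53 target, had 81.2 and 76.4 TPM, at a log2 ratio to Rps27 of -2.54 ± 0.024. Rpl7l1, which acts in assembly of the large subunit, had 16.4 and 20.04 TPM against 274 and 254 TPM of Rpl7, at -3.86 ± 0.28. Rps27rt, a gene with the same coding sequence as Rps27, had 9.16 and 12.2 TPM in the gene table, where 89.5% of its windows were shared, and was listed at 0 TPM in the second table in both animals. Reads in the windows it shares with Rps27 cannot be told apart.

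The testis paralogues were at or near 0. No read was placed on Rpl10l in either animal, while Rpl10, which is needed for joining of the subunits, had 77.0 and 75.9 TPM. Against the floor of 3 reads per library, Rpl10 was at least 893-fold higher than Rpl10l in animal 1 and at least 936-fold higher in animal 2, for counting error only. Rpl39l had 3 reads in animal 1 and 1 read in animal 2, and Rpl39, a protein of the exit tunnel, had 2096 and 2190. Per unit of length Rpl39 was 962-fold higher in animal 1 (exact 95% counting interval 329 to 4670) and 3015-fold higher in animal 2 (540 to 119123). None of 8 germ cell markers reached 1 TPM, and their summed level was 0.15 and 0.10 TPM, with Tnp1, Prm1, Prm2 and Acrv1 listed at 0 in both animals. In all 8 pairs the mean log2 ratio was larger than the spread in the gene table, and in 7 of 8 in the second table.

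**Figure D2:**
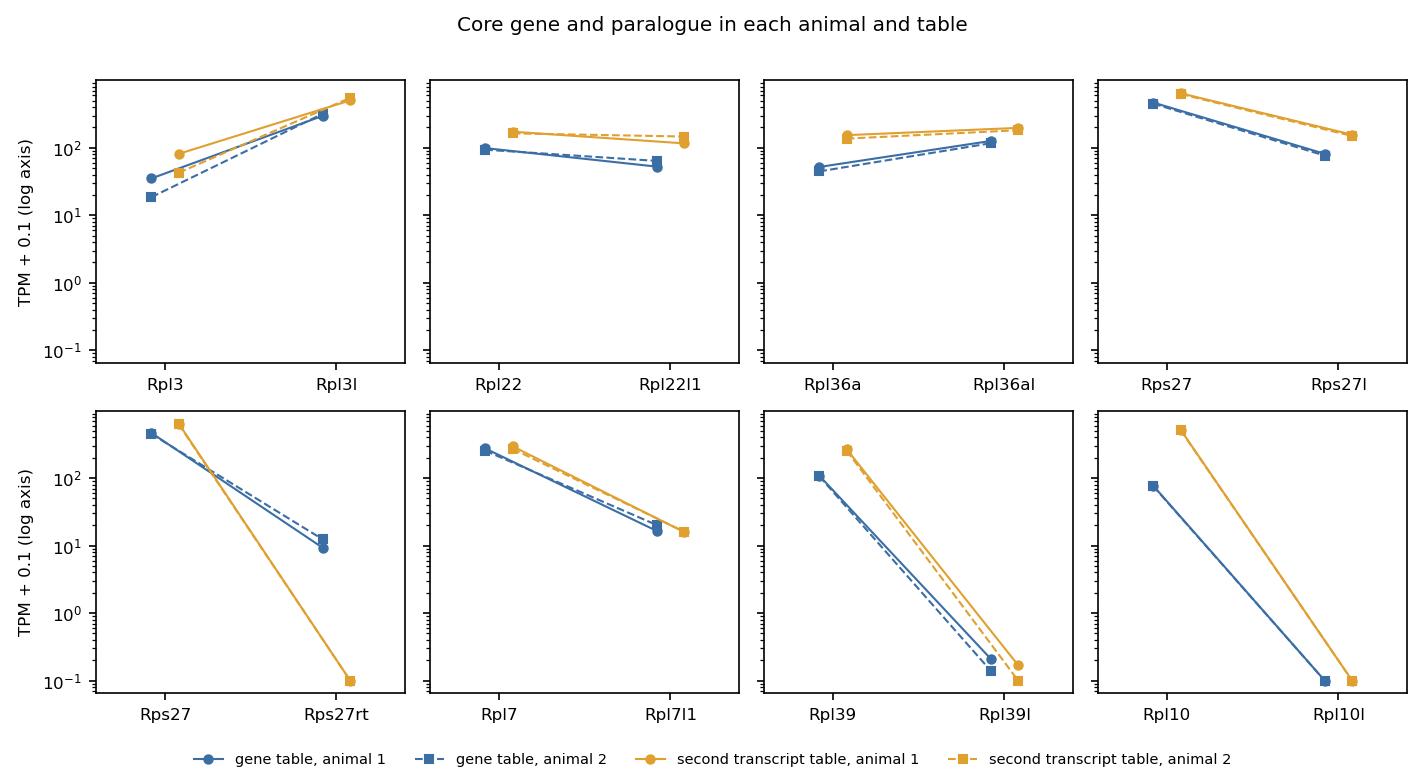
TPM plus 0.1 (log axis) of each core gene and its paralogue, with 1 line per animal and table (circles and full lines animal 1, squares and dashed lines animal 2). The lines rise for Rpl3l in both tables and fall to the pseudocount for Rpl10l, whose level was listed at 0.

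Many members share sequence with processed pseudogenes, and for several the tables placed the same family of reads differently. Of the 77 core genes, 73 shared at least 1 window of 100 nt with another annotated gene, and 20 shared over 50% of their windows. A total of 458 distinct genes typed as pseudogenes shared a window with a member. Copies that are pseudogenes by symbol alone, such as Rpl10-ps3, are not in this total but are in the counts that follow. For 47 core genes a copy stood at 10 TPM or more, and for 14 the copies together exceeded the gene. In the second table the copies exceeded the gene for 5. Windows were built for members only, so no share over all genes can be set beside these counts.

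Rpl27 was the extreme case. The gene table gave Rpl27 12.04 and 17.7 TPM in animals 1 and 2, and gave each of 2 copies, Gm11518 and Rpl27-ps3, 91.5 and 92.6 TPM. The second table gave Rpl27 247 and 256 TPM and both copies 0. The copies thus held 92.5% of the TPM of the family in the gene table, where gene and copies summed to 195 and 203 TPM.

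Rpl5 stood at 14.9 and 15.2 TPM and its copy Gm15500 at 181 and 178 TPM. The second table gave Rpl5 123 and 118 TPM, but still placed 224 and 220 TPM on Gm15500. Rpl12 stood at 32.0 and 32.4 TPM, and at 94.7 and 118 TPM in the second table. Its copy Gm10275 carried 186 and 188 TPM in the gene table and 232 and 192 TPM in the second, so both tables had the copy above the gene. Rpl27a, at 40.7 and 38.9 TPM, had 139 TPM on its copy Gm7536 in each animal, while the second table gave Rpl27a 344 and 339 TPM and the copy 99.5 and 96.6 TPM. Rpl10-ps3, a copy of Rpl10 that the annotation types as protein-coding, carried 197 and 196 TPM in the gene table and 0 in the second.

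With copies added, the core genes drew together. The SD of log2 TPM over the 77 genes went from 0.99 to 0.58 in the gene table and from 0.73 to 0.60 in the second. The median rose from 178 to 228 TPM, and the highest over the lowest gene fell from 36.9-fold to 12.3-fold. Of the 6 core genes under 50 TPM, 5 (Rpl5, Rpl12, Rpl27, Rpl27a and Rpl36a) then stood above 100 TPM. Rpl3 was the exception, at 56.1 and 33.4 TPM in animals 1 and 2. The next lowest, Rpl22, had 98.7 and 93.5 TPM, so Rpl3 was the lowest core gene in both animals once copies were counted. In the second table Rpl3 without copies was the lowest core gene in both animals, at 81.1 and 42.6 TPM, and the small subunit gene Rps3 had 99.3 and 103 TPM. With copies it was the lowest there by the mean, 88.7 TPM, but in animal 1 it stood at 113 TPM, above Rps3. Adding copies can overstate a gene, since some reads may come from the copies themselves. It is not a strict bound, because reads placed on genes without a shared window were not added.

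**Figure D3:**
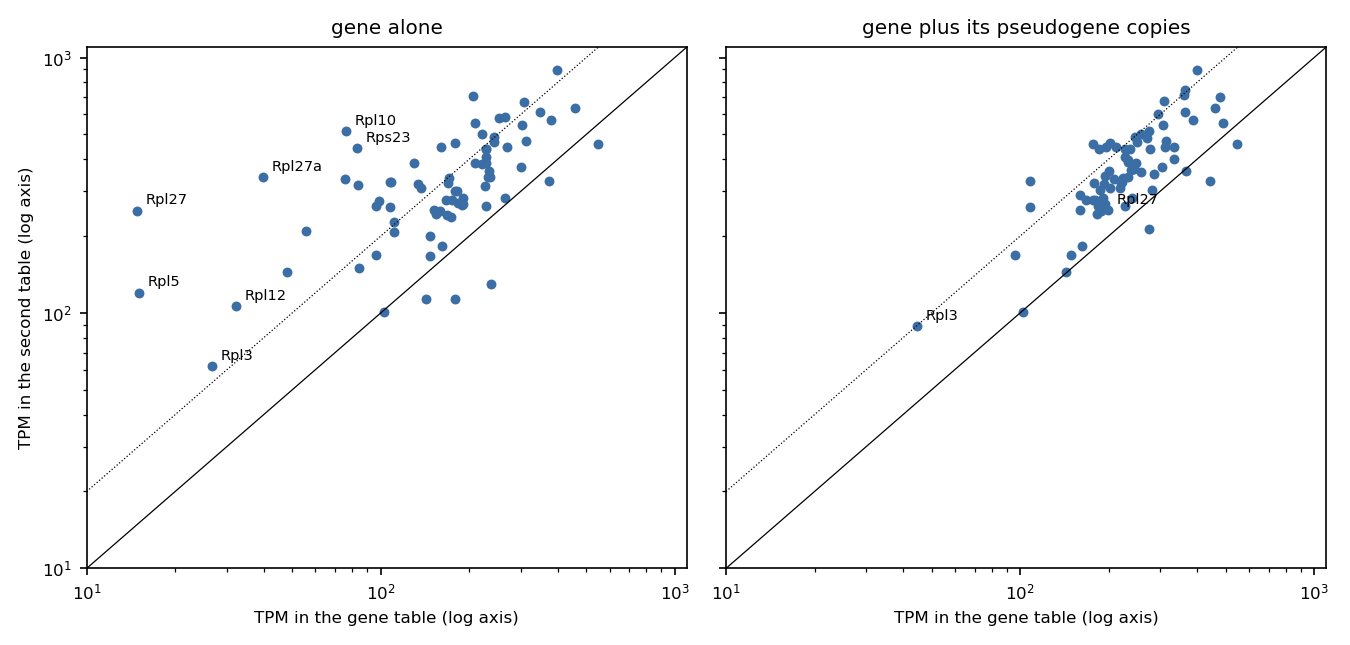
Mean TPM of the 77 core genes in the gene table (x, log axis) and the second table (y, log axis), for the gene alone (left) and with its pseudogene copies (right); the full line marks equal values and the dotted line 2-fold. Rpl27 at 14.87 against 252 TPM is far above the line alone and at 199 against 252 TPM with copies, and Rpl3 has the lowest mean of the core genes in both tables once copies are counted.

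Between tables, a gene was called where it differed 2-fold or more in the same direction in both animals. The second table was higher by that much for 30 of 84 members, against 9.59% of 13030 genes at 1 TPM or more in either table, and lower for 1 member, Rps27rt, against 3.52%. The median log2 ratio of the second over the gene table was 0.84 for members and 0.56 for all genes. With both tables rescaled over nuclear protein-coding genes 9 members were higher and 4 lower in the second table, against 3.57% and 4.14% of genes. The members furthest apart were Rpl27 (log2 4.10), Rpl27a (3.10), Rpl5 (2.99), Rpl10 (2.75) and Rps23 (2.41), a protein of the decoding site. Besides Rps27rt, those furthest in the other direction were Rpl36 (-0.87), Rpl19 (-0.65), Rpl17 (-0.33) and Rplp1 (-0.25). With copies counted on both sides, 13 members were 2-fold higher and 1 lower in the second table.

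The posterior SD, the deposited measure of how uncertain the placing of a gene's reads is, was larger for members than for most genes. In units of the square root of the count, its median was 0.404 over 84 members with a mean of 100 reads or more, and 0 over all 10872 such genes. It exceeded 1 for 14 members (16.7%) and for 3.06% of all genes. Rps12 (4.46), Rpl10 (3.69), Rps27rt (2.49), Rpl11 (1.51) and Rpl3 (1.501) were highest. For Rps12, a small subunit protein, the main sharing genes were Rps12-ps3, at 113 and 119 TPM, and Rps12l1, at 53.4 and 27.1 TPM. Across the 77 core genes this measure went with the share of windows in common (Spearman's rho 0.60, a description across genes of the same libraries).

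No member differed 2-fold between the animals. With a mean of 100 reads or more, 84 members and 10872 genes could be read. The share of all genes at least 2-fold higher was 0.791% in animal 2 and 2.18% in animal 1, and the count of members was 0 in each direction. The median log2 ratio of animal 2 over animal 1 was 0.079 for members and 0.023 for all genes. Over genes with 1000 to 10000 reads the medians were 0.078 for 75 members and 0.067 for 3763 genes. The ratio was above 0 for 76 of 84 members and for 54.8% of all genes. Among genes with 1000 to 10000 reads it was above 0 for 69 of 75 members (92%) and for 68.4% of genes. The count of 76 follows the scaling: it was 30 with library size alone and 83 with spike-in scaling, since a scaling moves the ratios of all genes by the same amount. The share of all genes above 0 was not counted under these other scalings.

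Of the 77 core genes, 74 lay within 0.25 of 0 on the log2 scale. The quartiles over all 10872 genes, -0.13 and 0.15, lay within this band too. So did those over genes with 1000 to 10000 reads, -0.032 and 0.17. The share of all genes within the band was not counted, so closeness is not read as particular to the core genes. Rpl3 was the one core gene well below, at -0.78 with an exact 95% counting interval of -0.91 to -0.65. Counting copies with it, the ratio was -0.61. The other members lowest in animal 2 were Rpl41 (-0.11), Rpl36a (-0.092), Rpl37 (-0.086) and Rps16 (-0.040), all 4 of which were above 0 with spike-in scaling. At the opposite end were Rpl27 (0.65), Rps27rt (0.53), Rpl22l1 (0.37), Rpl35a (0.27) and Rps21 (0.25). The ratio of Rpl27 was 0.19 with its copies, and that of Rps27rt rests on 95 and 135 reads that could belong to Rps27. Rpl22l1 kept 0.37 with its copy, from 774 and 982 reads. Rpl3l was at 0.21 (0.18 to 0.25). Rpl3 was below 0 and Rpl3l above 0 under each of the scalings, at -0.58 and 0.41 with spike-ins and at -0.89 and 0.10 with library size alone.

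The libraries also differed in markers of fibre type and of other cells, and the part of these in the member values was not tested. Each of 6 slow fibre markers stood 2-fold or more higher in animal 2 (summed level 484 and 2666 TPM in animals 1 and 2), while none of 8 fast fibre markers was 2-fold apart. All 8 adipocyte markers were at least 2-fold higher in animal 1 (815 against 106 TPM), as were 7 of 7 Schwann cell markers with enough reads (255 against 35.2 TPM over 8). Macrophage markers had a median log2 ratio of -0.53 over 7 genes and fibroblast markers -0.45 over 8, of which Col3a1 and Dpt were 2-fold higher in animal 1. No endothelial (median -0.18 over 8) or erythroid marker (0.43 over 4) was 2-fold apart. None of the slow fibre, adipocyte, Schwann or fibroblast markers was listed at 0.

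**Figure D4:**
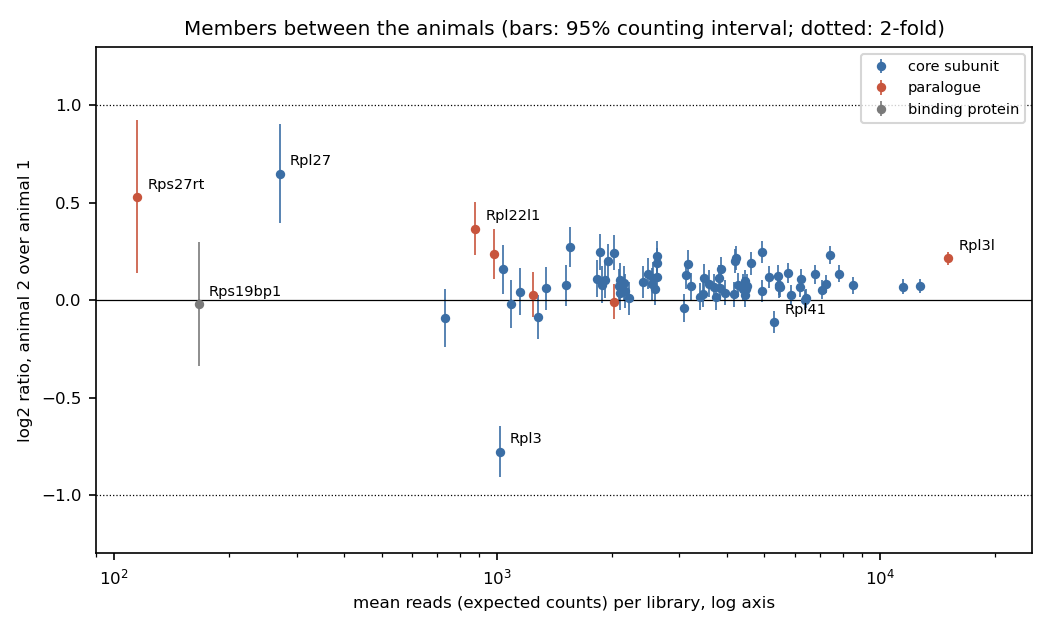
Log2 ratio of animal 2 over animal 1 against mean reads per library (log axis) for the 84 members with a mean of 100 reads or more; bars are exact 95% counting intervals and dotted lines mark 2-fold. Rpl3 at -0.78 stands apart from the members of like read number, and Rpl3l at 0.21 has the most reads.

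Part of the members' TPM was placed on transcripts that are not typed as protein-coding. Their share of the members' TPM was 17.0 ± 0.0321% in the first transcript table, made up of retained introns (7.39%), processed transcripts (5.29%) and targets of nonsense-mediated decay (4.34%). The second table gave 32.1 ± 0.632%, with 17.2%, 11.7% and 3.31%. For most members the share was small: the median over 83 members at 10 TPM or more was 1.304%, and 15 exceeded 50%. Shares by transcript type were not computed over all genes, so neither they nor the counts can be called particular to the members. Among the highest were Rps16 (98.8%), Rps20 (97.2%), Rpl35 (95.3%) and Rps26 (90.04%), a protein at the messenger exit channel. In Rps16 the leading such transcript was Rps16-203, at 115 and 100 TPM.

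These shares depended on the table. Of 83 members with a value in both, 15 exceeded 50% in the first and 24 in the second. The 11 that did so in both were 73.3% of the first set and 45.8% of the second, and Rpl12, Rpl22l1, Rpl23, Rpl27a, Rpl35, Rpl37, Rps16, Rps18, Rps20 and Rps23 were among them. Rps27 was placed on such transcripts for 0.330% of its TPM in the first table and 99.9% in the second, where Rps27-209 had 634 and 607 TPM. The second table subtracts 338 and 344 nt from the length of a long transcript in animals 1 and 2, and less from a short one. The first subtracts 99 nt, and core genes had mean transcript lengths from 346 to 1869 nt. The part of this length correction in the difference was not tested. For Rps24, a small subunit gene known for alternative 3′ exons, the tables also differed: the coding Rps24-205 led in both, with 118 and 138 TPM in the first and 273 and 299 TPM in the second, but Rps24-203 had 102 and 109 TPM in the first and 0 in the second.

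**Figure D5:**
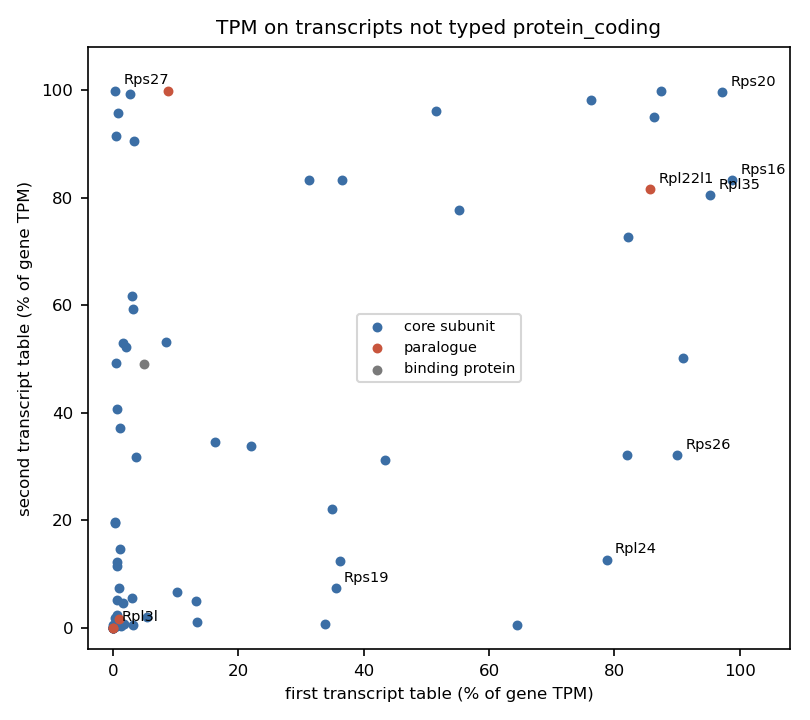
Percent of each member's TPM on transcripts not typed protein-coding in the first (x) and second (y) transcript table, mean of 2 animals, for members with a level in both. Rps16 and Rps20 are high in both, Rps27 is at 0.330% in one and 99.9% in the other, and Rpl3l is at 0 in both.

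The other genes of the pathway were mostly expressed, and none with enough reads was 2-fold apart between animals. The subunits outside the symbol rule included Fau, a small subunit protein made as a fusion with a ubiquitin-like protein, at 177 ± 10.9 TPM, and Rack1, a small subunit scaffold, at 154 ± 2.42 TPM. All 30 ribosome biogenesis factors reached 1 TPM, with a median of 11.04 TPM, and the nucleolar proteins Npm1 (47.1 TPM) and Ncl (38.5 TPM) were highest. Of 8 chaperones of ribosomal proteins and nascent chains, Naca was highest at 140 TPM over all its transcripts, which were not separated. For RNA polymerase I and its factors 15 of 16 listed genes matched, with a median of 8.69 TPM. In the list of TOP and ribosome control 11 of 12 genes reached 1 TPM, among them Larp1, the TOP-binding repressor, at 34.0 TPM. None of these genes with a mean of 100 reads or more was 2-fold apart between animals. The medians of their log2 ratios were -0.027 for biogenesis, 0.046 for chaperones, 0.038 for RNA polymerase I and 0.029 for TOP control. In the same order, single genes ranged from -0.47 to 0.27, -0.20 to 0.19, -0.15 to 0.31 and -0.56 to 0.16. The 22 proteins of the mitochondrial ribosome, at a median of 23.4 TPM, had a median of 0.19 and were above 0 in 22 of 22, against 54.8% of all genes and 68.4% of genes with 1000 to 10000 reads, and none was 2-fold apart. With library size alone 18 of the 22 were above 0 and their median was 0.079, against -0.087 for all genes.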

How the data were processed

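Each library was deposited as a gene table and a first transcript table with expected counts and TPM, in the column layout that RSEM writes, and a second transcript table with estimated counts and TPM in the layout of kallisto, per the file headers. The authors' file lists name mm10 and GENCODE M21, with aligner, tool versions and strand setting not given in the sources used here. The deposited posterior SD of a count was used as a score of read placement, and shares by transcript type were summed from TPM in place of the deposited percent per transcript. TPM sums over all rows, spike-ins included, so one abundant RNA lowers the rest. Numbered rows without a gene name held 3 and 5 reads (6.63e-06% and 1.04e-05%); these and the spike-ins stayed out of library sizes. The deposited values differed between libraries beyond sampling noise (chi-square per gene with a mean of 57.3 and a median of 4.03 over 10872 genes), so they were counted as 2 samples.

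Ratios between animals used expected counts rounded to whole numbers, edgeR's TMM factors, a prior count of 0.5 and a mean of 100 reads or more; intervals are exact binomial at 95% and cover counting error only. With 2 libraries of 1 group no test between conditions and no p-value was possible. Pair ratios used a pseudocount of 0.1 TPM. Copies are pseudogenes, by type or symbol, that share a window of 100 nt (the read length implied by the effective lengths) with a member's coding transcript on either strand. The members, pairs and lists were chosen with earlier results of these data known. The named members were the pairs, the 10 highest and 10 lowest in TPM, the 5 furthest apart between animals and between tables in each direction, the 5 of highest posterior SD and the 5 of highest non-coding share; markers are given by list, and Rps3, Rpl38 and the members that are high in non-coding share in both tables were named after their values were seen. A few members chosen this way are not reported here. The ratio step was tested on simulated data. Alternatives were other scalings, prior counts, filters, pseudocounts and denominators, the second table, each library left out and, added after seeing the data, copies counted with each member. Tools were edgeR 4.0.16 and DESeq2 1.42.0 in R 4.3.3, and Biopython 1.88, matplotlib 3.10.9, scipy 1.17.1, pandas 2.3.3 and numpy 2.4.6 in Python 3.11.15.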

Additional observations from a re-analysis of the deposited data

How the results depend on the processing

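Of 166 values recomputed under alternatives, 129 were scored as unchanged. For pairs this meant the same sign and call, whatever the size of the ratio. Rps27rt over Rps27 thus went from -5.42 to -12.6 in the second table and was scored as unchanged. With a library left out, only the sign of a pair was scored. That outcome was fixed in advance, because each pair already had 1 sign in both animals, so those values carry no weight in the counts. Levels and ratios between animals had to stay within their spread or counting error, and counts of members at a similar size. A ratio near 0 could therefore change sign, as Rpl36a did from -0.092 to 0.037 in the second table. The median member level was 170 TPM, 305 TPM in the second transcript table, 451 TPM with TPM recomputed over protein-coding genes and 221 TPM with copies, and 169 to 170 TPM with either library left out. The share of gene TPM was 2.76% in the second table, 3.96% of nuclear protein-coding genes and 0.694% of expected counts, and 1.49% to 1.52% with a library left out. The member median log2 ratio between animals was -0.031 with library size alone, a reversal, and 0.28 with spike-in scaling; these move the median of all genes to -0.087 and 0.22. Rpl41 turned to 0.087 with spike-in scaling. Without a filter on counts 1 member, Rpl39l, was 2-fold apart, on 3 reads and 1 read. In pairs, 46 of 48 alternative values were scored as unchanged, among them those with a library left out, which could not change. Rpl36al over Rpl36a turned to -0.23 with copies and Rpl22l1 over Rpl22 fell within the spread in the second table. The members 2-fold apart between tables numbered 31, and 13 after rescaling over protein-coding genes, 14 with copies and 31 to 33 with a library left out. The median non-coding share of members at 1 TPM or more was 1.42%, and 11.5% in the second table. The median posterior SD over the square root of the count was 0.404, and 0.404 to 0.426 with a library left out. Depth limits Rpl39l and Rpl10l, at 0 to 3 reads. No paired analysis was possible because the 2 libraries form 1 group. Which quantification is nearer to the true level was not tested.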
